A study of Homo sapiens with 12 samples.

Results

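The cytosolic ribosomal protein genes encode the proteins of the large and small subunits of the ribosome that translates nuclear-encoded mRNA. They were chosen by gene name: RPL or RPS followed by a number, with the listed letter suffixes, the P stalk genes RPLP0, RPLP1 and RPLP2, RPSA, and the paralogs RPS27L, RPL22L1, RPL26L1, RPL36AL, RPL39L and RPL7L1, with no pseudogene names. The rule found 83 genes of 57167 gene names, held in 58735 lines of each deposited count table. Of the 83 genes, 43 belong to the large subunit, 31 to the small subunit and 3 to the P stalk, and 6 are paralogs of another member. All 83 passed the filter on low counts in every comparison.

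RNA-seq counts came from KELLY, a human neuroblastoma line that carries amplified MYCN, and SK-N-AS, one that does not. Each line had 3 samples with DMSO, the vehicle, and 3 with Erastin, a compound that blocks cystine uptake and triggers the iron-dependent cell death called ferroptosis. KELLY received 1 µM and SK-N-AS 2 µM, both for 24 hours. Line and dose therefore cannot be told apart in any comparison of the responses. Wells were seeded in triplicate, so p-values measure the spread between such samples, which may be technical.

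Ribosomal protein mRNAs are among the most abundant of growing cells, and most begin with a run of pyrimidines at the cap, the 5′ terminal oligopyrimidine (TOP) motif. mTORC1, a kinase that senses nutrients, controls their translation through the cap-binding protein LARP1. MYC and MYCN are known to raise the transcription of ribosomal protein and ribosome assembly genes.

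Start sequences are shown for 4 paralog pairs and for members with large differences between the lines, to show which begin with a pyrimidine run. Each window runs from 10 bases before the RefSeq start to the 20th base from it (GRCh38.p14), and capitals mark the run of at least 5 pyrimidines that begins at the start base. Where RefSeq lists several starts for a gene, the one with the longest run is shown. The first 4 pairs are a member and its paralog.
RPL22 (chr1:6199576-6199605, minus strand): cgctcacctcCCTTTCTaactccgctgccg
RPL22L1 (chr3:170870176-170870205, minus strand): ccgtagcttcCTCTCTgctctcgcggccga
RPS27 (chr1:153990752-153990781, plus strand): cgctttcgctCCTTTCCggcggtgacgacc
RPS27L (chr15:63157458-63157487, minus strand): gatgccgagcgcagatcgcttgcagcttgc
RPL26 (chr17:8383174-8383203, minus strand): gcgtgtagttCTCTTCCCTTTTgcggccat
RPL26L1 (chr5:172958719-172958748, plus strand): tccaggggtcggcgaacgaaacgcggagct
RPL36A (chrX:101391001-101391030, plus strand): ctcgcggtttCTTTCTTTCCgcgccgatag
RPL36AL (chr14:49620607-49620636, minus strand): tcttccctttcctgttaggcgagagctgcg
The next 5 belong to members with the largest differences between the lines.
RPL14 (chr3:40457329-40457358, plus strand): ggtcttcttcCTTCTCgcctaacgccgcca
RPS3 (chr11:75399508-75399537, plus strand): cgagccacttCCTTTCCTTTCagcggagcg
RPSA (chr3:39406710-39406739, plus strand): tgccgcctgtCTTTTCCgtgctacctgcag
RPLP2 (chr11:809957-809986, plus strand): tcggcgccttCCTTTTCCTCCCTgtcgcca
RPL27A (chr11:8682782-8682811, plus strand): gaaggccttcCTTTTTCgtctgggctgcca

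RefSeq promoter entries matched 67 of the 83 members. Genes can have several listed starts, and a run or motif was counted for a gene, member or not, if any of them had it. A run of at least 5 pyrimidines from the start base was present in 47 of the 67 (70.1%), against 6.5% of 27305 genes. RPS27L, RPL26L1 and RPL36AL had no such run, while their partners RPS27, RPL26 and RPL36A did. A run was counted only from the listed start base. In RPL36AL it counted 3 bases, but they end a longer pyrimidine stretch that begins before that base, so its class depends on the start listed. RPL22L1 and RPL22 both had one. In the 300 bases from 250 before to 50 after a start, read on both strands, CCGGAAG, a core that ETS factors bind, was found in 24 members (35.8%) and in 12.2% of all genes. The E-box CACGTG, which MYC and MYCN bind, was found in 5 members (7.46%) and in 8.77% of all genes. AAGATGGC, the core bound by YY1, was found in 7 members (10.4%) and in 3.52% of all genes. TGATGCAA, a sequence that ATF4 binds, was found in 1 member (1.49%) and in 1.08% of all genes. Such a match describes letters in a window and shows no binding.

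Library totals ran from 24169796 to 29835670 counts. The libraries of one group differed in how counts followed GC content: the rank correlation of a library's log2 ratio with gene GC content ran from -0.844 to 0.875 in the KELLY libraries and from -0.765 to 0.781 in the SK-N-AS libraries, without separating DMSO from Erastin. Members called at an adjusted p are therefore counted both as scaled and with a smooth GC trend removed from each library. Most other values are given as scaled alone. Mean MYCN was 5287 CPM (counts relative to the scaled library total) in KELLY DMSO and 0.37 CPM in SK-N-AS DMSO, and mean MYC was 0.72 and 141 CPM. Summed adrenergic neuroblastoma markers (7 genes) lay between 2327 and 3768 CPM in KELLY DMSO and between 931 and 1024 CPM in SK-N-AS DMSO. Mesenchymal markers (6 genes) summed to 151 to 171 CPM in KELLY DMSO and to 4615 to 4865 CPM in SK-N-AS DMSO. Of 7 blood and immune markers, the leukocyte gene PTPRC was at a mean of 548 CPM in SK-N-AS DMSO, while CD3E and LYZ were at 0 there. The part of these marker differences in the results was not tested.

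The ribosomal protein genes took 4.75% ± 0.678 (SD, n = 3) of all counts in KELLY DMSO and 5.51% ± 0.650 (n = 3) in KELLY Erastin. The KELLY DMSO samples held 4.18, 5.50 and 4.57%, and the KELLY Erastin samples 6.25, 5.03 and 5.26%, so the groups overlapped. In SK-N-AS the share was 4.02% ± 0.212 with DMSO (4.00, 4.25 and 3.82%) and 3.94% ± 0.117 with Erastin (3.87, 4.08 and 3.88%). In bulk samples, fewer cells and less RNA per cell cannot be told apart, and a share says nothing of the amount of ribosome per cell.

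Per kilobase of the canonical transcript, RPLP0, the stalk base protein, was the highest member in both lines, at 2664 ± 372 CPM per kb (SD, n = 3) in KELLY DMSO and 3433 ± 182 in SK-N-AS DMSO. The median over the 83 members was 499 CPM per kb in KELLY DMSO and 361 in SK-N-AS DMSO. Per kilobase of all annotated exons, RPS12 was the highest in KELLY DMSO at 1243 ± 83.9 CPM per kb and RPLP0 in SK-N-AS DMSO at 951 ± 50.3, so the order of the top members depended on the length used. RPS10, a small subunit protein modified when ribosomes collide, was the lowest on the canonical length in KELLY DMSO, at 4.42 ± 0.14 CPM per kb. RPS27L, with a canonical transcript of 6110 bases, was the lowest on that length in SK-N-AS DMSO, at 2.43 ± 0.15. Per kilobase of all exons or of the longest transcript, RPS10 was the lowest in SK-N-AS DMSO, at 0.933 and 1.54 CPM per kb. RPS10, RPL17 and RPL36A share exons with readthrough genes on the same strand, RPL26 shares 14.5% of its exonic bases with another gene on its strand, and a read that fits more than one gene is left out by such counting. RPS10 held 49 to 77 counts over the 12 libraries, and the readthrough gene RPS10-NUDT3 at most 3.

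Features named as pseudogenes of a member numbered 1149 and belonged to 77 of the 83 members. Their counts came to between 4.36 and 4.92% of the members' counts in a library. For single members the share was larger: pseudogenes of RPL9 held 131% of the count of RPL9 itself in KELLY DMSO and 149% in SK-N-AS DMSO. Pseudogenes of RPS28 held 46.1 and 134% of RPS28. Reads may be split between such copies, and the values of these members are uncertain for that reason.

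**Figure D1:**
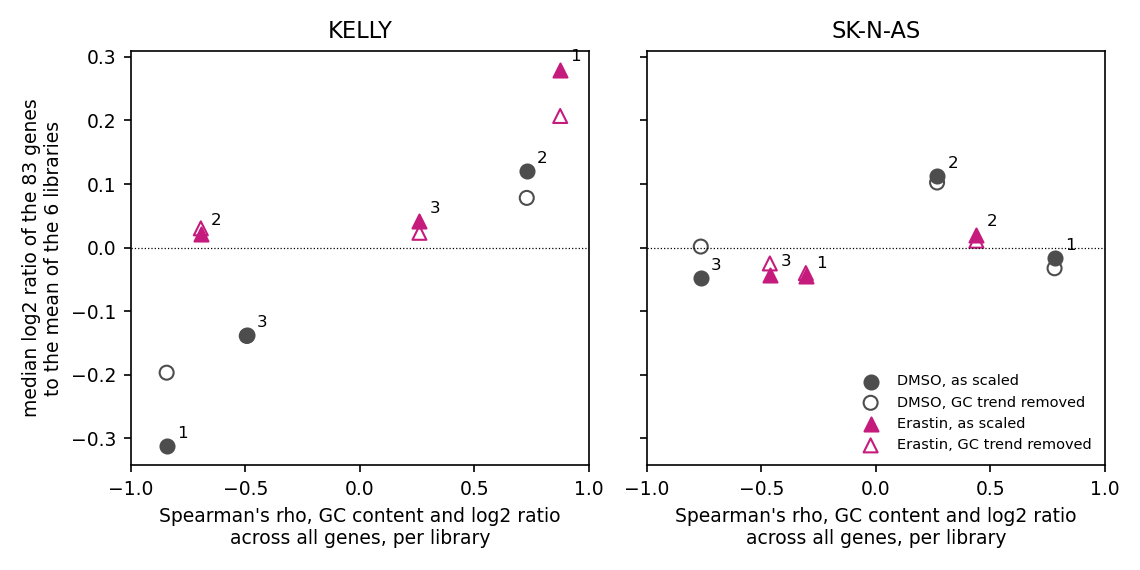
Median log2 ratio of the 83 ribosomal protein genes in each library to the mean of the 6 libraries of its line (vertical axis) against the Spearman rho of that library's log2 ratios with gene GC content (horizontal axis), for KELLY and SK-N-AS. Circles are DMSO and triangles Erastin, filled as scaled and open with the GC trend removed, and numbers are replicates: filled KELLY points run from -0.313 to 0.280, and filled SK-N-AS points from -0.048 to 0.112.

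In KELLY, Erastin and DMSO were compared to ask whether 24 hours of the antiporter inhibitor changed the mRNAs of the ribosome. No member passed the test: 0 of 83 had an adjusted p under 0.05 in edgeR's quasi-likelihood test, against 0.00615% of all 16258 genes tested. DESeq2 and limma-voom also called 0 members, and 0 members had an unadjusted p of at most 0.05 in edgeR, against 2.64% of all genes. The members' log2 fold changes had a median of 0.22, with quartiles of 0.01 and 0.38, beside a median of 0.01 over all genes. Of the 83, 63 (75.9%) were above 0 and 20 (24.1%) below, against 50.5 and 49.5% of all genes. Removing the GC trend left the median at 0.22 with 0 members called (0.178% of all genes), and put 3 members at an unadjusted p of at most 0.05 (6.84% of all genes). They were RPL12, RPL7 and RPS15A, with an adjusted p of 0.697 each.

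**Figure D2:**
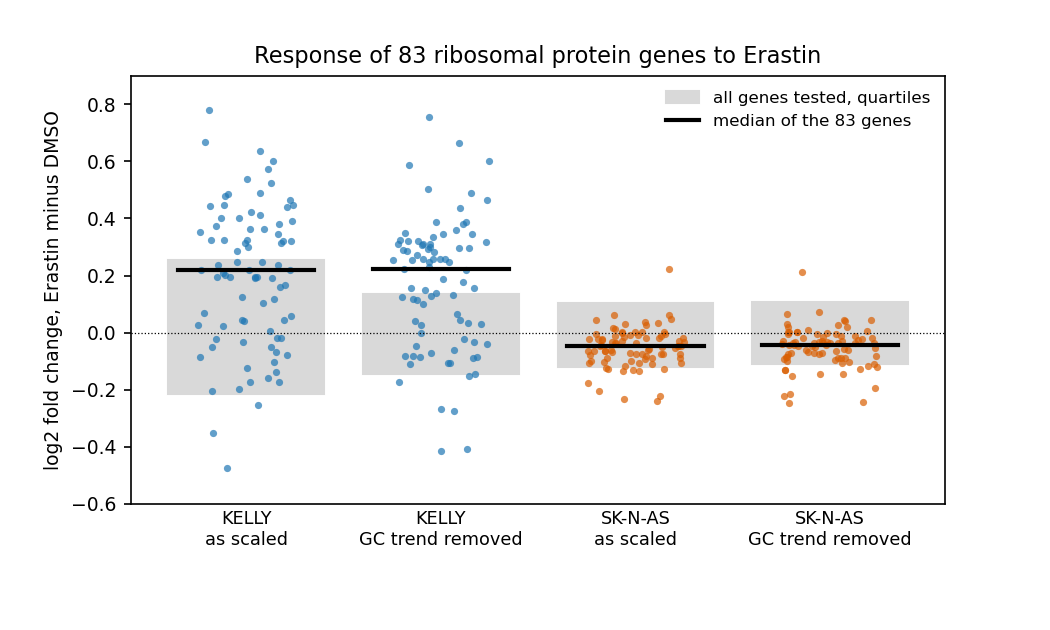
Log2 fold change, Erastin minus DMSO (vertical axis), of each of the 83 ribosomal protein genes in KELLY and SK-N-AS, as scaled and with the GC trend removed; points are genes, black lines their medians and grey boxes the quartiles of all genes tested. As scaled, KELLY points lie between -0.48 and 0.78 with a median of 0.22, and SK-N-AS points between -0.24 and 0.22 with a median of -0.05.

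The large subunit genes had a median log2 fold change of 0.30 (38 of 43 above 0), the small subunit genes 0.17 (20 of 31), the P stalk genes -0.02 (1 of 3) and the paralogs 0.03 (4 of 6). RPL36, a large subunit protein with the highest exon GC content of the members (64.6%), gave the largest value. Its KELLY DMSO samples held 38.1, 194 and 114 CPM and its KELLY Erastin samples 308, 117 and 166 CPM. The samples overlapped, and within DMSO alone they spanned a 5.09-fold range. The log2 fold change was 0.78 (SE 0.57, 95% interval -0.53 to 2.09, edgeR adjusted p = 0.770), and 0.44 with the GC trend removed.

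RPS14, which helps mature the RNA of the small subunit, held 164, 557 and 352 CPM with DMSO and 828, 404 and 464 CPM with Erastin. RPS2, at the mRNA entry side of the small subunit, held 991, 1993 and 1283 CPM with DMSO and 3563, 1330 and 1715 CPM with Erastin. In both, the first Erastin sample was the highest of all and the first DMSO sample was the lowest, and the rest overlapped. Their log2 fold changes were 0.67 (SE 0.44) and 0.64 (SE 0.40).

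The smallest unadjusted p belonged to RPS15A, a protein of the small subunit. It held 51.8, 70.2 and 70.3 CPM with DMSO and 80.1, 79.8 and 78.8 CPM with Erastin. All Erastin samples lay above all DMSO samples, with a log2 fold change of 0.32 (SE 0.17) and an adjusted p of 0.770 in edgeR (unadjusted 0.095). RPL7, a large subunit protein, held 633, 635 and 623 CPM with DMSO and 766, 710 and 707 CPM with Erastin, also without overlap, with a log2 fold change of 0.21 (SE 0.12, edgeR adjusted p = 0.770). RPS6, the small subunit protein that the kinase downstream of mTORC1 phosphorylates, held 539, 801 and 675 CPM with DMSO and 1002, 765 and 787 CPM with Erastin, which overlapped.

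The Erastin samples lay wholly above the DMSO samples for 6 members (RPS15A, RPS24, RPL7, RPL6, RPL5 and RPS4X), which is 7.23% of the members against 4.2% of all genes. They lay wholly below for RPL7L1, 1.20% against 4.34%. RPL7L1, the paralog of RPL7 with a role in ribosome assembly, held 308, 313 and 321 CPM with DMSO and 272, 298 and 293 CPM with Erastin, a log2 fold change of -0.12 (SE 0.12). RPL22L1, the paralog of RPL22, had the lowest value: 42.2, 26.7 and 22.8 CPM with DMSO and 16.1, 29.3 and 20.5 CPM with Erastin, a log2 fold change of -0.48 (SE 0.30).

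The spread within the KELLY groups was large beside these differences. The first KELLY DMSO sample was the lowest of its group for 50 of the 83 members and the second the highest for 59, while the first Erastin sample was the highest of its group for 61. Within KELLY DMSO, 16 members differed at least 2-fold between samples, and 8 did with the GC trend removed, against 0 within SK-N-AS DMSO. Leaving out 1 sample at a time kept the members' median between 0.13 and 0.33 and left 0 members called. The cut-off named in the study's methods (p of at most 0.05 before adjustment, 1.5-fold change) was applied here and below to edgeR's p-values over all genes tested. The study used it with DESeq2 on protein-coding genes, so these counts are not those of its own analysis. In the whole comparison 0 members passed (2.03% of all genes). But 20 passed without the second DMSO sample, against 5.91% of all genes in that fit, and 2 without the second Erastin sample, against 3.79%. The KELLY fold changes followed GC content across the members (Spearman rho 0.457 over 83 genes, a description, since the genes share the libraries), and did so at -0.127 with the trend removed.

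In SK-N-AS, the same comparison gave smaller values. No member passed edgeR's test, 0 of 83 against 0.659% of the 16095 genes tested, and 0 had an unadjusted p of at most 0.05 against 8.77%. With the GC trend removed, 9 members (10.8%) had an unadjusted p of at most 0.05, against 19.5% of all genes. DESeq2 and limma-voom called 0 members. The median log2 fold change was -0.05, with quartiles of -0.09 and -0.01, and 68 of the 83 members were below 0 (81.9%, against 52.4% of all genes). The highest upper bound of a 95% interval among the members was 0.475 (RPS27L), so a rise larger than that lay outside every member's interval, while in KELLY the highest upper bound was 2.09. The Erastin samples lay wholly above the DMSO samples for 0 members (6.98% of all genes) and wholly below for 3, RPL17, RPL26 and RPL37A (3.61% of the members, 7.81% of all genes). With the GC trend removed, 9 members lay wholly below (10.8%), against 13.4% of all genes.

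RPL17, whose protein lines the exit tunnel for the new peptide, held 12.2, 11.1 and 11.8 CPM with DMSO and 9.36, 10.3 and 9.98 CPM with Erastin. Its log2 fold change was -0.23 (SE 0.12, edgeR adjusted p = 0.619). RPS27L, a p53-inducible paralog of RPS27, held 14.0, 14.7 and 15.8 CPM with DMSO and 15.4, 17.3 and 18.9 CPM with Erastin, a log2 fold change of 0.22 (SE 0.12, edgeR adjusted p = 0.647). RPL35A had a log2 fold change of -0.13 (SE 0.09). None of these passed the test.

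RPL22L1 held 80.1, 101 and 116 CPM with DMSO and 85.7, 81.8 and 85.9 CPM with Erastin, and the groups overlapped. Its log2 fold change was -0.22 (SE 0.12, edgeR adjusted p = 0.665). With the GC trend removed it was the 1 member called, against 5.19% of all genes in either direction and 2.93% lower: it fell by 0.22 on the log2 scale (SE 0.060, edgeR adjusted p = 0.045), and its samples then did not overlap. That call held in 1 of the 6 fits that each left out a sample. Across the 83 members, the SK-N-AS fold changes followed GC content at a Spearman rho of 0.098 as scaled and of 0.365 with the trend removed. Removal therefore did not bring this relation closer to 0.

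The difference between the lines' responses, SK-N-AS minus KELLY, was tested as an interaction over all 12 samples. No member passed edgeR's test (0 of 83, against 0.00548% of 18239 genes), and DESeq2 and limma-voom called 0. An unadjusted p of at most 0.05 was reached by 2 members, against 4.25% of all genes. They were RPL17, with a difference of -0.66 on the log2 scale (SE 0.26, edgeR adjusted p = 0.811), and RPL7, with -0.28 (SE 0.12, edgeR adjusted p = 0.811). The RPL17 difference was -0.41 without the first KELLY Erastin sample. The median difference was -0.28, and with the GC trend removed 12 members were at an unadjusted p of at most 0.05 (7.58% of all genes) and 0 were called (0.0987%). At the cut-off of the methods 1 member, RPL17, passed, against 3.53% of all genes, and 27 passed without the second KELLY DMSO sample, against 9.0%. The comparison within KELLY and that between the lines use the same KELLY DMSO samples, and the comparison within SK-N-AS shares its DMSO samples likewise, so their values are set side by side and not correlated.

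Control levels were then compared between the lines, KELLY DMSO minus SK-N-AS DMSO. Members higher in KELLY numbered 27 and members lower numbered 11, so 38 of 83 (45.8%) passed edgeR's test at an adjusted p under 0.05, against 61.3% of the 17089 genes tested. By direction these were 32.5% of the members higher against 30.9% of all genes, and 13.3% lower against 30.3%. The median log2 difference was 0.20 beside 0.02 over all genes. With the GC trend removed, 52 members passed, against 73.2% of all genes, and 37 of the 38 were among them. Of the 52, 39 were higher (47.0% of the members, 38.3% of all genes) and 13 lower (15.7 and 34.9%). At the cut-off of the methods 28 members passed (33.7%, against 57.6% of all genes). When each of the 6 samples was left out in turn, 30 of the 38 stayed past the threshold in all 6 fits, 22 higher and 8 lower in KELLY. The samples of 2 called members, RPL13 and RPL36A, overlapped between the lines.

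**Figure D3:**
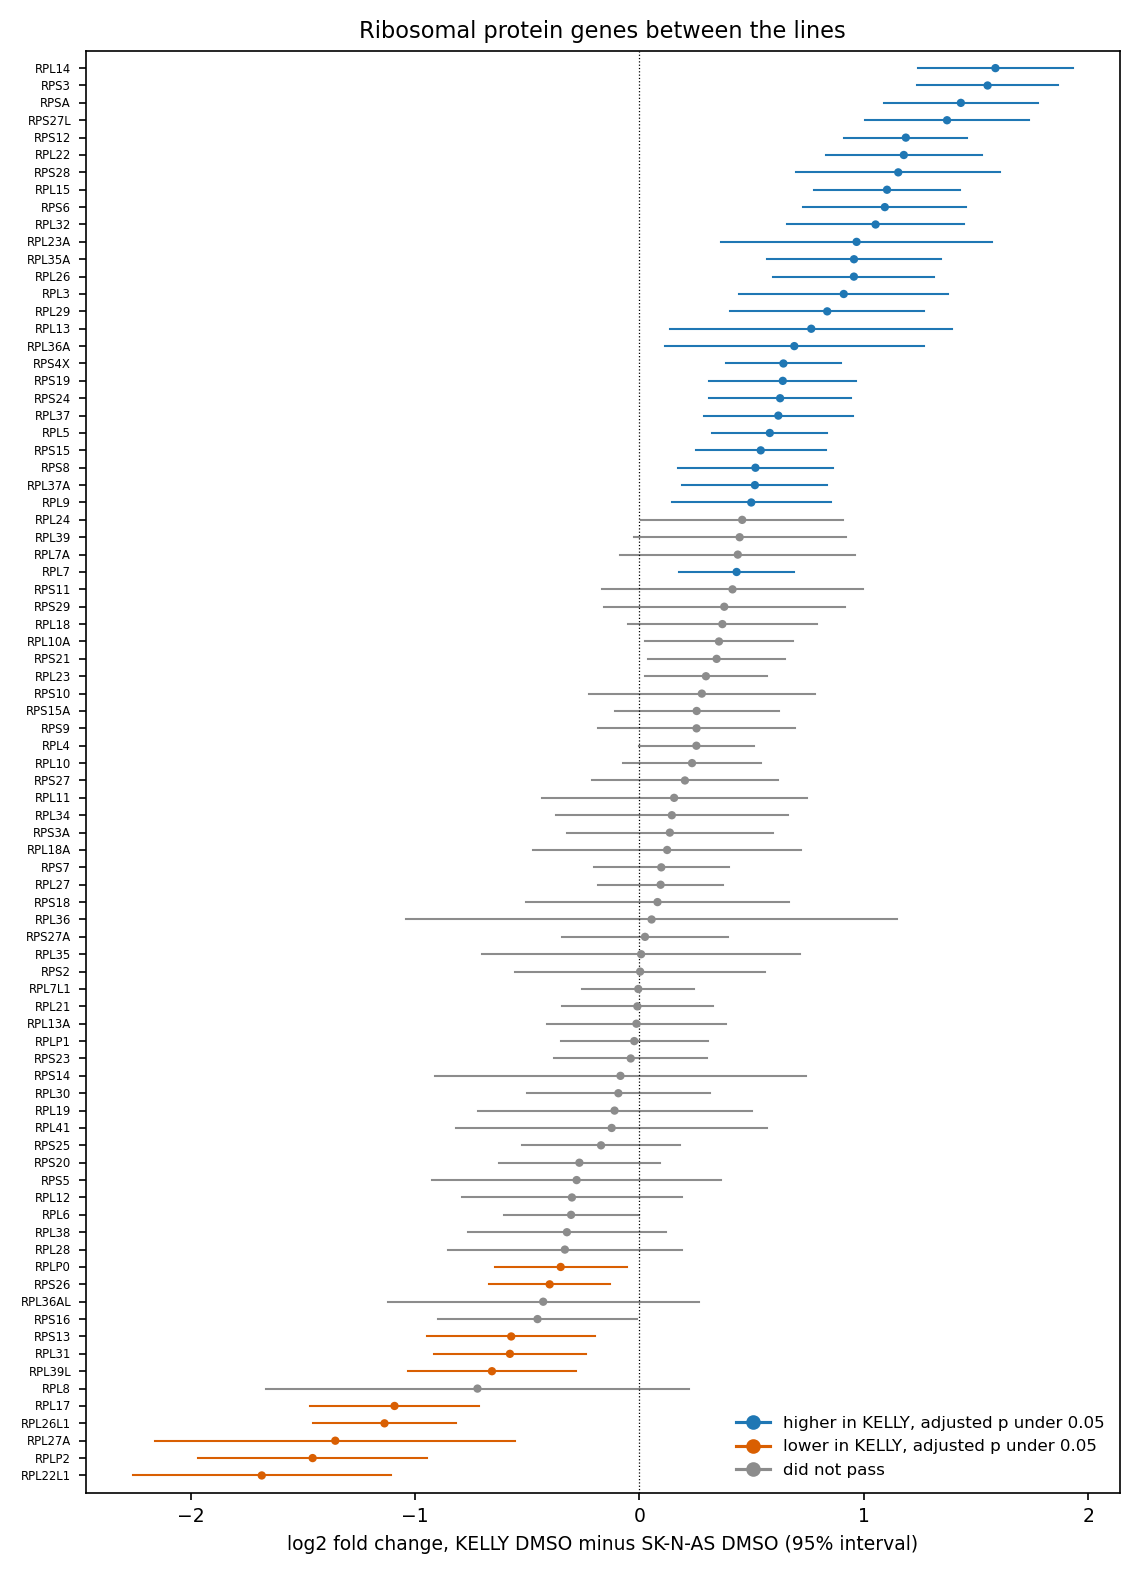
Ribosomal protein genes (82 shown) ranked by log2 difference, KELLY DMSO minus SK-N-AS DMSO (horizontal axis), with 95% confidence intervals, and members past the adjusted p threshold in colour. Values run from -1.68 (RPL22L1) to 1.59 (RPL14), and 27 members are coloured above 0 and 10 below.

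Of the large subunit genes, 16 of 43 were higher in KELLY and 3 lower, while 30.9% of all genes were higher and 30.3% lower. RPL14, a large subunit protein, held 150, 156 and 129 CPM in the SK-N-AS DMSO samples and 366, 493 and 435 CPM in the KELLY DMSO samples. The lines did not overlap, and the level was 3.00-fold higher in KELLY (log2 1.59, SE 0.15, edgeR adjusted p = 2.5e-05). RPL15, needed for assembly of the large subunit, held 418, 449 and 399 CPM in SK-N-AS and 771, 1057 and 865 CPM in KELLY, a log2 difference of 1.10 (SE 0.14). RPL3, which contacts the peptidyl transferase centre, held 1180, 1195 and 1022 CPM in SK-N-AS and 1467, 2695 and 2162 CPM in KELLY, a log2 difference of 0.91 (SE 0.20). RPL5 and RPL11 bind MDM2 together and so couple ribosome assembly to p53. RPL5 was higher in KELLY, at 543, 610 and 582 CPM in SK-N-AS and 888, 868 and 814 CPM in KELLY (log2 0.58, SE 0.11). RPL11 held 384, 392 and 326 CPM in SK-N-AS and 247, 563 and 406 CPM in KELLY, which overlapped.

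The 3 large subunit genes lower in KELLY were RPL17, RPL27A and RPL31. RPL27A held 513, 562 and 414 CPM in SK-N-AS and 92.8, 294 and 190 CPM in KELLY, a log2 difference of -1.36 (SE 0.35, edgeR adjusted p = 0.0091). RPL17 held 12.2, 11.1 and 11.8 CPM in SK-N-AS and 5.13, 5.32 and 5.81 CPM in KELLY (log2 -1.09, SE 0.17). RPL31, at the tunnel exit, held 384, 461 and 451 CPM in SK-N-AS and 329, 285 and 246 CPM in KELLY (log2 -0.58, SE 0.15). In all 3 the lines did not overlap.

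In the P stalk, which recruits the translation factors that hydrolyse GTP, 2 of 3 genes were lower in KELLY, against 30.3% of all genes. RPLP2 held 544, 509 and 412 CPM in SK-N-AS and 136, 240 and 152 CPM in KELLY, a log2 difference of -1.46 (SE 0.22, edgeR adjusted p = 0.00049). RPLP0 differed by -0.35 (SE 0.13, edgeR adjusted p = 0.041). That call was lost with the GC trend removed (log2 -0.28), and in 5 of the 6 fits that each left out a sample, all but the fit without the first KELLY DMSO sample. RPLP1, the partner of RPLP2 in the stalk dimers, held 1273, 1311 and 1347 CPM in SK-N-AS and 1505, 1265 and 1057 CPM in KELLY, which overlapped.

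Of the small subunit genes, 10 of 31 were higher in KELLY, near the 30.9% of all genes, and 3 were lower, against 30.3%. RPS3, which lies at the mRNA entry channel, held 349, 386 and 343 CPM in SK-N-AS and 1086, 1154 and 888 CPM in KELLY, 2.93-fold higher (log2 1.55, SE 0.14, edgeR adjusted p = 1.6e-05). RPSA, also known as a laminin receptor, held 631, 700 and 624 CPM in SK-N-AS and 1444, 2079 and 1702 CPM in KELLY (log2 1.43, SE 0.15). RPS12 held 325, 374 and 358 CPM in SK-N-AS and 849, 793 and 741 CPM in KELLY (log2 1.19, SE 0.12). For these 3 genes every KELLY sample lay above every SK-N-AS sample. RPS28 differed by 1.15 (SE 0.20), but by 0.48 and no longer past the threshold when the counts of its pseudogenes were added to it.

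RPS6 held 303, 342 and 308 CPM in SK-N-AS and 539, 801 and 675 CPM in KELLY (log2 1.09, SE 0.16, edgeR adjusted p = 0.00037). RPS19 and RPS26 are mutated in Diamond-Blackfan anaemia, a failure of red cell production. They differed in opposite directions: RPS19 was higher in KELLY (log2 0.64, SE 0.14) and RPS26 lower (log2 -0.40, SE 0.12). The RPS26 call was lost without the second SK-N-AS DMSO sample or the third KELLY DMSO sample.

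Of the 6 paralogs, 3 were lower in KELLY (RPL22L1, RPL26L1 and RPL39L) and 1 was higher (RPS27L), against 30.3 and 30.9% of all genes. RPL22L1 held 80.1, 101 and 116 CPM in SK-N-AS and 42.2, 26.7 and 22.8 CPM in KELLY (log2 -1.68, SE 0.25, edgeR adjusted p = 0.00043), the lowest value of the 83 members. Its partner RPL22 held 65.4, 74.0 and 74.1 CPM in SK-N-AS and 187, 140 and 150 CPM in KELLY (log2 1.18, SE 0.15, edgeR adjusted p = 0.00018). The count ratio of RPL22L1 to RPL22 was 1.23 to 1.57 in SK-N-AS DMSO and 0.152 to 0.225 in KELLY DMSO, ranges that did not overlap. Ratios within a pair were not scaled for length and are compared only between samples.

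RPL26L1 held 41.5, 43.0 and 40.7 CPM in SK-N-AS and 17.4, 19.5 and 19.4 CPM in KELLY (log2 -1.14, SE 0.14), while RPL26 was higher in KELLY (log2 0.96, SE 0.16). The ratio of RPL26L1 to RPL26 was 5.32 to 5.61 in SK-N-AS and 1.26 to 1.33 in KELLY. RPL39L, known for its expression in male germ cells, was lower in KELLY (log2 -0.66, SE 0.16), and its ratio to RPL39 was 0.098 to 0.141 in SK-N-AS against 0.047 to 0.065 in KELLY. RPS27L held 14.0, 14.7 and 15.8 CPM in SK-N-AS and 43.1, 37.2 and 33.6 CPM in KELLY (log2 1.37, SE 0.16). Its ratio to RPS27 was 0.041 to 0.050 in SK-N-AS and 0.079 to 0.132 in KELLY. The ratio of RPL36AL to RPL36A overlapped between the lines, at 3.14 to 5.28 in SK-N-AS and 0.860 to 4.04 in KELLY. The ratio of RPL7L1 to RPL7 was 0.654 to 0.719 in SK-N-AS and 0.487 to 0.515 in KELLY. Pseudogene counts equalled 37.5% of the RPL26 count in KELLY DMSO and 46.2% in SK-N-AS DMSO, and 33.9 and 34.7% for RPL39. These ratios are therefore uncertain. Reads that fit several copies are left out of such counts, so the percentages do not bound the error. Per kilobase of all exons, RPL26 was at 5.88 CPM in KELLY DMSO and 3.06 in SK-N-AS DMSO, against member medians of 131 and 106. The RPL36A ratio is uncertain too, since RPL36A held 141 to 349 counts and shares exons with a readthrough gene. RPL26 held 170 to 576 counts in a library, and reads in the exons it shares with another gene may not be counted, which adds to the uncertainty of its ratio.

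**Figure D4:**
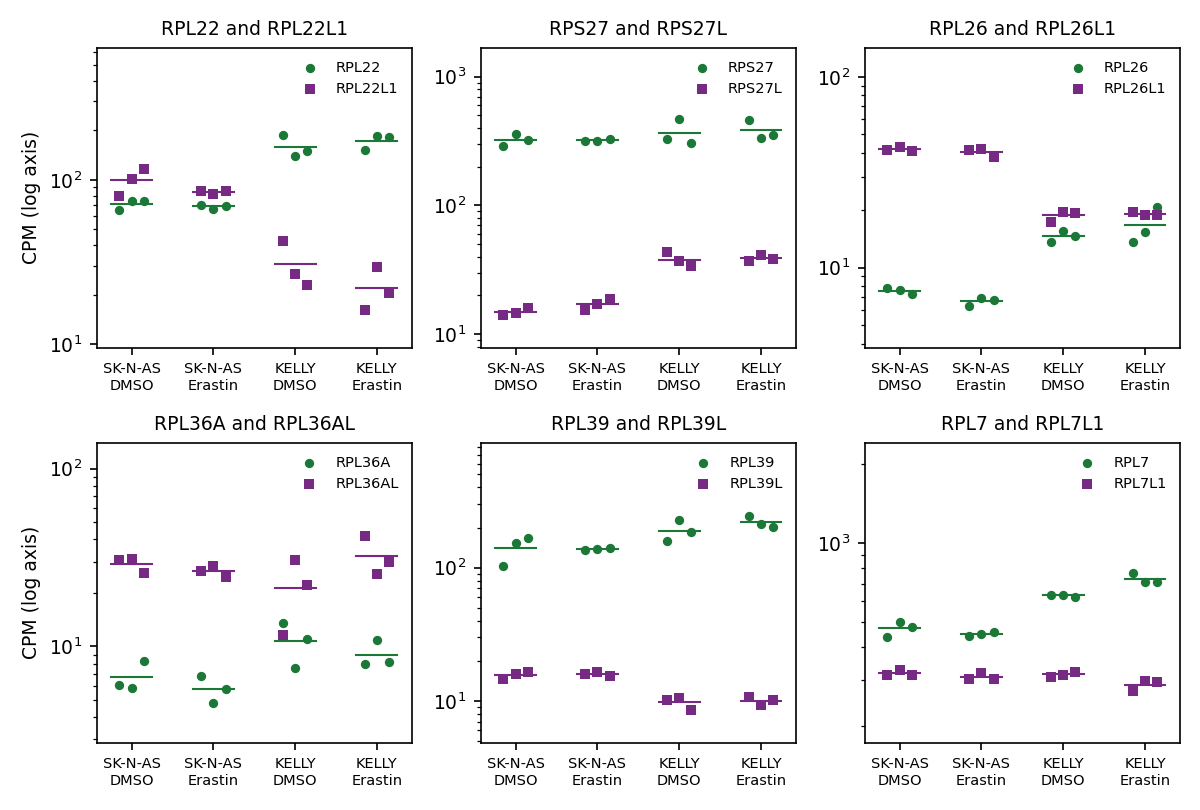
CPM on log axes of the 6 paralogs (squares) and their partners (circles) in each sample of the 4 groups, with lines at the group means. RPL22L1 lies above RPL22 in every SK-N-AS sample and below it in every KELLY sample, and RPS27L lies higher in KELLY than in SK-N-AS.

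Line differences of the members were set beside those of the genes around them. For each member, the median log2 difference (KELLY minus SK-N-AS) was taken over the other tested genes within 5 Mb on each side, a measure chosen after the data were seen. For 82 members with at least 20 such genes, Pearson's r of the member with its neighbours was 0.593 and Spearman's rho 0.468. This describes these members, whose windows overlap on some chromosomes. Of the 82, 44 lay on the same side of 0 as their neighbours.

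RPL14 and RPSA, on chromosome 3, had neighbour medians of 0.90 and 0.94, and RPS3, on chromosome 11, one of 1.06. RPLP2 and RPL27A, on the other arm of chromosome 11, had -1.67 and -1.05, and RPL17, on chromosome 18, had -1.19. RPL22L1, on chromosome 3, stood opposite to its neighbours, which had a median of 0.69, and RPS27L (0.0064) and RPL26L1 (0.0069) had neighbours near 0. The 9 members on chromosome 3 had a median log2 difference of 0.96, and 7 of them were higher in KELLY, while the other 848 tested genes of that chromosome had a median of 0.55. Copy number was not measured here, and its part in the differences was not tested.

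**Figure D5:**
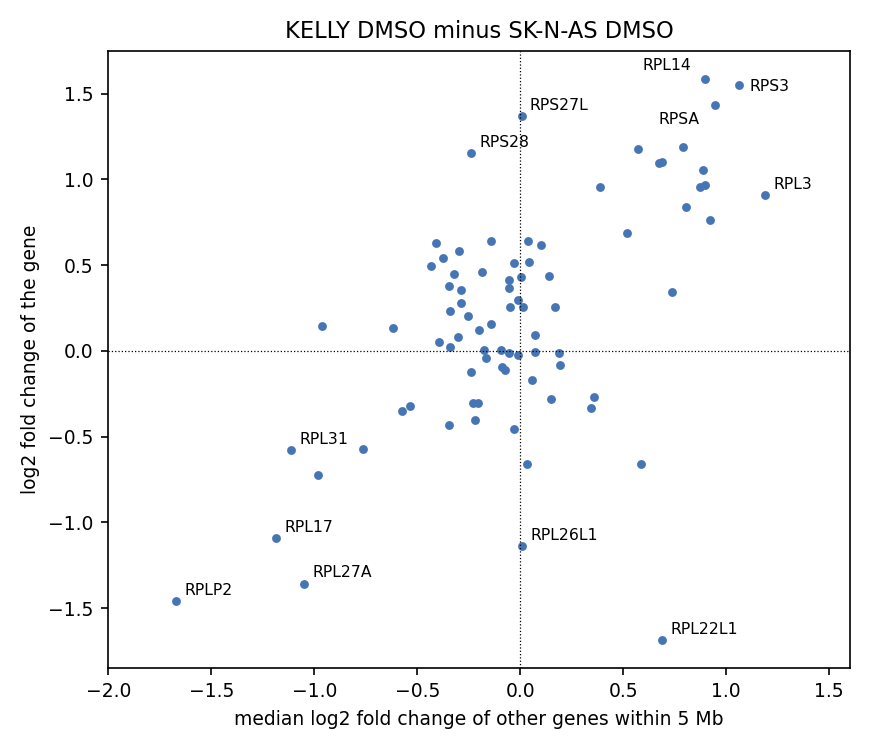
Log2 difference between the lines of each ribosomal protein gene against the median of the other tested genes within 5 Mb on each side. RPL14, RPSA and RPS3 lie at the upper right, RPLP2, RPL27A and RPL17 at the lower left, and RPL22L1 at the lower right, opposite to its neighbours.

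Members with and without the pyrimidine run at the start were set side by side. The 47 members with a run had a median log2 fold change of 0.24 in KELLY and -0.05 in SK-N-AS (Erastin minus DMSO), and the 20 with a promoter entry and no run 0.09 and -0.03. Between the lines the medians were 0.15 with a run and 0.30 without. The KELLY quartiles overlapped, at -0.02 and 0.39 with a run and -0.0008 and 0.26 without. In KELLY, 34 of the 47 and 15 of the 20 lay above 0. With the GC trend removed, the KELLY medians were 0.25 and 0.14. The class of a member depends on the start listed. RPL19 and RPS7 were counted as without a run, at 4 and 3 bases, but these end longer pyrimidine stretches that begin before the start. These are descriptions with no test.

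Other genes of ribosome production and its control were counted by list. In KELLY, none of 24 translation factors with TOP mRNAs, 40 ribosome biogenesis factors, 14 RNA polymerase I genes, 20 regulators of TOP mRNAs, 20 stalling and quality control genes and 77 mitochondrial ribosomal protein genes passed edgeR's test. List medians in KELLY ran from -0.01 (biogenesis factors) to 0.13 (TOP translation factors and RNA polymerase I). With the GC trend removed, 3 genes passed there, all higher, while 0.178% of all genes were called. SESN2 (log2 1.41, edgeR adjusted p = 0.0011) and DDIT4 (log2 1.83, edgeR adjusted p = 0.0025) are both inhibitors of mTORC1 activity induced by stress. The third was CDKN1A (log2 0.71, edgeR adjusted p = 0.025), the cell cycle inhibitor that p53 induces.

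In SK-N-AS, SESN2 and DDIT4 were the only genes of these lists to pass the test, which 0.659% of all genes passed. SESN2 ranged from 8.65 to 11.9 CPM with DMSO and from 22.5 to 32.7 CPM with Erastin, and rose by 1.47 on the log2 scale (edgeR adjusted p = 0.00042). DDIT4 ranged from 18.2 to 25.95 CPM with DMSO and from 46.3 to 64.8 CPM with Erastin, and rose by 1.26 (edgeR adjusted p = 0.0011). With the GC trend removed, EIF4EBP1, the mTORC1 substrate that holds back cap-dependent translation, was also called (log2 0.64, edgeR adjusted p = 0.00063), as was ZNF598, a ligase for collided ribosomes (log2 0.30, edgeR adjusted p = 0.0011). NPM1, BOP1, EIF4A2 and ABCE1, and 3 mitochondrial ribosomal protein genes, were called lower there, with NPM1 at -0.16 and BOP1 at -0.19. Of all genes tested in SK-N-AS, 5.19% were called with the GC trend removed, and 2.93% were called lower. List medians ran from -0.10 to 0.05.

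Between the lines, 17 of 40 biogenesis factors were higher in KELLY and 7 lower, with a median of 0.25. Of all genes tested, 30.9% were higher and 30.3% lower. The TOP translation factors gave 9 higher and 6 lower of 24, RNA polymerase I genes 3 and 6 of 14, TOP regulators 3 and 4 of 20, stalling and quality control genes 7 and 4 of 20, and mitochondrial ribosomal protein genes 13 and 20 of 78. GNL3, a nucleolar GTPase, was higher in KELLY (log2 1.51), and EIF3F, a subunit of initiation factor eIF3, was lower (log2 -1.27).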

How the data were processed

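RNA-seq of KELLY and SK-N-AS cells was deposited as tables of counts per gene, raw whole numbers that the authors made from paired-end reads aligned to GRCh38, annotated with GENCODE and counted with HTSeq. Per the submitters' processing notes, Trimmomatic and DESeq2 were also used; the aligner and strand setting are not given in the sources used here. The deposited values were neither normalized nor pooled.

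Counts were filtered (filterByExpr), scaled by TMM and tested with edgeR 4.0.16 (quasi-likelihood, R 4.3.3) within the 6 samples of each comparison, or all 12 for the interaction, with Benjamini-Hochberg adjustment over all genes tested. CPM per sample used 1 TMM scaling of all 12 samples. The GC trend of each library, a loess curve (span 0.5, degree 2) of log2 ratio on exonic GC content over genes with at least 50 counts in every sample, entered as an offset. Genes matched the reference annotation by symbol (36230 of 57167), and 83.4 to 86.1% of tested genes had a GC value. DESeq2 1.42.0, limma 3.58.1, other scalings, filters, call rules, added pseudogene counts and left-out samples were alternatives. GC and length of the canonical transcript, left-out samples at the cut-off of the methods and the neighbour medians were added after seeing the data. The procedure was also run on simulated counts. These had the same spread for all genes, unlike the real data, so no result here rests on them.

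Members and lists were chosen with earlier results of these data known. Named genes were a set of members and paralog pairs, up to 8 called members in each direction per comparison, the 5 members with the smallest p where fewer than 3 were called, the highest and lowest per length, and of each other list up to 3 genes by p; others named were chosen after their values were seen. In KELLY, differences that are small beside a gene's spread between samples may have been missed at this number of samples. No fold change of the authors was used. Values of 1 member are not reported here, though it is counted.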

Additional observations from a re-analysis of the deposited data

How the results depend on the processing

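In SK-N-AS, 0 members were called; 1 was with the GC trend, the GC and length trends, or the GC trend of the canonical transcript removed, 2 with the replicate block and the GC trend removed, and 0 to 9 when samples were left out (with the GC trend removed, 9 without DMSO replicate 1 and 7 without DMSO replicate 3, where 7.48 and 6.72% of all genes were called). Between the lines, left-out samples gave 32 to 60 calls, the highest without KELLY DMSO replicate 1 with the GC trend removed (75.7% of all genes called), and 28 passed the cut-off of the methods. The interaction gave 1 call at that threshold, RPL17, and KELLY gave 0 in every alternative at an adjusted p, but 0 to 20 at the cut-off of the methods with a sample left out. The cause of these changes was not tested. With a sample left out, the KELLY log2 fold change of RPL8 ran from -0.0096 to 0.98 and that of RPL34 from -0.52 to 0.010. The SK-N-AS median turned from -0.05 to 0.0023 without DMSO replicate 2. The share of counts was 4.31% in SK-N-AS DMSO and 4.25% in SK-N-AS Erastin without counts of mitochondrial-genome genes, and 4.12% in SK-N-AS Erastin with pseudogenes added.

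Deviations of same-numbered samples from their group means correlated at -0.82, -0.86 and -0.18 in KELLY and at -0.14, 0.25 and 0.47 in SK-N-AS. The libraries of a group also differ in GC trend. With that trend removed, the correlations were -0.47, -0.57 and 0.04 in KELLY and 0.02, 0.17 and 0.22 in SK-N-AS. Values that differ so between pairs cannot decide whether same-numbered samples were handled together. The labels give only a shared number. The replicate block gave 0 calls in KELLY, SK-N-AS and the interaction, and 32 between the lines (53 with the GC trend removed).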

Other observations

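MRPL23, a mitochondrial ribosomal protein gene on chromosome 11, ranged from 7.78 to 10.53 CPM in KELLY DMSO and from 9.77 to 21.9 CPM in KELLY Erastin, while it was at 0 to 0.038 CPM in SK-N-AS DMSO and at 0 in SK-N-AS Erastin.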
